A study of Mus musculus with 3 samples.

Results

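The proteasome genes described here are the 50 of 24421 gene symbols in the count tables that begin with Psma to Psmg followed by a digit. They were grouped by the role of their products into 8 core alpha genes, 8 core beta genes, 3 immunoproteasome genes, 23 regulatory genes and 7 assembly genes. The remaining one, Psmc3ip, matches by its symbol only: it encodes a meiotic recombination factor named after a partner protein. RNA was measured by sequencing in hematopoietic stem and progenitor cells, the precursors of every kind of blood cell, which were sorted from mouse bone marrow by their lack of lineage markers and by staining for c-Kit and Sca-1. All 3 libraries are controls from C57BL/6 mice with both alleles of Cic, the gene of the transcriptional repressor Capicua, flanked by loxP sites and with tamoxifen treatment (Cic flox/flox + tamoxifen). The labels call them UCK control without saying what UCK stands for, and they give neither the Cre line nor the age of the mice. The study concerned the loss of Capicua. Its other mouse group was not analysed here, so no genotypes are contrasted. Nothing in the labels ties the libraries to separate mice, so the spread between them, and each p below, may be technical.

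The proteasome is the large protease that degrades proteins marked with ubiquitin chains. Its barrel-shaped core, the 20S particle, stacks outer rings of alpha subunits, which gate the entry, on inner rings of beta subunits, of which 3 kinds cut peptide bonds. A 19S regulatory particle, made of a base with an ATPase ring and a lid, binds the ubiquitin chain, removes it and unfolds the substrate, and the 20S core capped by it is the 26S proteasome. Cells exposed to interferon, and many blood cells at rest, exchange the 3 cutting subunits for immunoproteasome versions, which favour peptides suited to presentation on MHC class I. Dedicated chaperones build the rings and stay out of the finished particle.

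Levels are counts per 1000000 gene counts (CPM), given as the mean ± SD of the 3 libraries (n = 3) or for libraries 1, 2 and 3 in that order. The gene counts behind them came to 30718562, 25097769 and 30032593, and the CPM that a count of 0 allows (3 counts) ranged from 0.0977 to 0.120, for counting error only. CPM grows with the length of a transcript, so levels of different genes are compared per kilobase. A gene named for the highest or lowest CPM of its role or list was picked for print by that value, which does not rank the genes by level. Since the annotated length of several of these genes differs much between transcript models, the length used is named each time: either all annotated exons or the transcript with the longest coding sequence, called the coding transcript below. The sort markers were present, Kit, the gene of c-Kit, at 826 ± 71.0 CPM and Ly6a, the gene of Sca-1, at 103 ± 9.50 CPM.

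Some members have near-copies in the genome, which limits what their counts can show, since reads that align to several places are usually dropped by read counters. The clearest case is the PA28 beta gene Psme2 (chromosome 14, 55587441 to 55591113, mm10, minus strand) and its intronless copy Psme2b (chromosome 11, 48945354 to 48946190, minus strand). Their coding sequences are identical at 712 of 717 bases (99.3%), and the stretch from coding base 454 to 543 is shown because it holds 3 of the 5 differing bases, written in capitals.
Psme2: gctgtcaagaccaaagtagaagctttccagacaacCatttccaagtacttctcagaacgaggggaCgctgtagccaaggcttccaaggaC
Psme2b: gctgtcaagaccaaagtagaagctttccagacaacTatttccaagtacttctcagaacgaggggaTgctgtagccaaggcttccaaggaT
Of the 50-base words of their coding transcripts, 59.3% for Psme2 and 69.3% for Psme2b also occur in another gene. The second case bears on the catalytic subunits: Psmb5 shares a run of 194 bases (coding bases 466 to 659) with the processed pseudogene Gm3375 on chromosome 7. The first 120 bases of that run are given as an example. A read lying wholly within the run cannot be placed, and the read length is not given in the sources used here.
Psmb5: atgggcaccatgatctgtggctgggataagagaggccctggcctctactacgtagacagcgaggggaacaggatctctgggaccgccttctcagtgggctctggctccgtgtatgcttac
Of the 50-base words of the coding transcript, 57.1% in Psmb5, 55.4% in Psma5 and 55.8% in Psmb3 also occur in another annotated gene. That count takes in genes that overlap at the same place. Of the 485 such words of Psmb5, 60 belong to Mir686, which overlaps its exons. Psmb10, by contrast, shares no 50-base word, and Psmb6 and Psmb8 share 2.67% and 5.83%. The immunoproteasome genes and their constitutive counterparts do not share such stretches with each other. The longest identical runs were 18 bases for Psmb8 and Psmb5, 11 for Psmb9 and Psmb6 and 15 for Psmb10 and Psmb7.

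Every one of the 50 genes was expressed at a mean of at least 1 CPM, where 53.1% of all gene symbols reached that level. Their median was 63.9 CPM. Per kilobase of annotated exons the median was 23.7, against 6.41 for the 12965 genes that passed the minimum, and 45 of the 50 lay above that value. The other 5 were Psma8, Psmb11, Psmf1, Psmg3 and Psmd9. The summed level of all 50 was 3508, 4215 and 4308 CPM, so library 1 was the lowest.

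**Figure D1:**
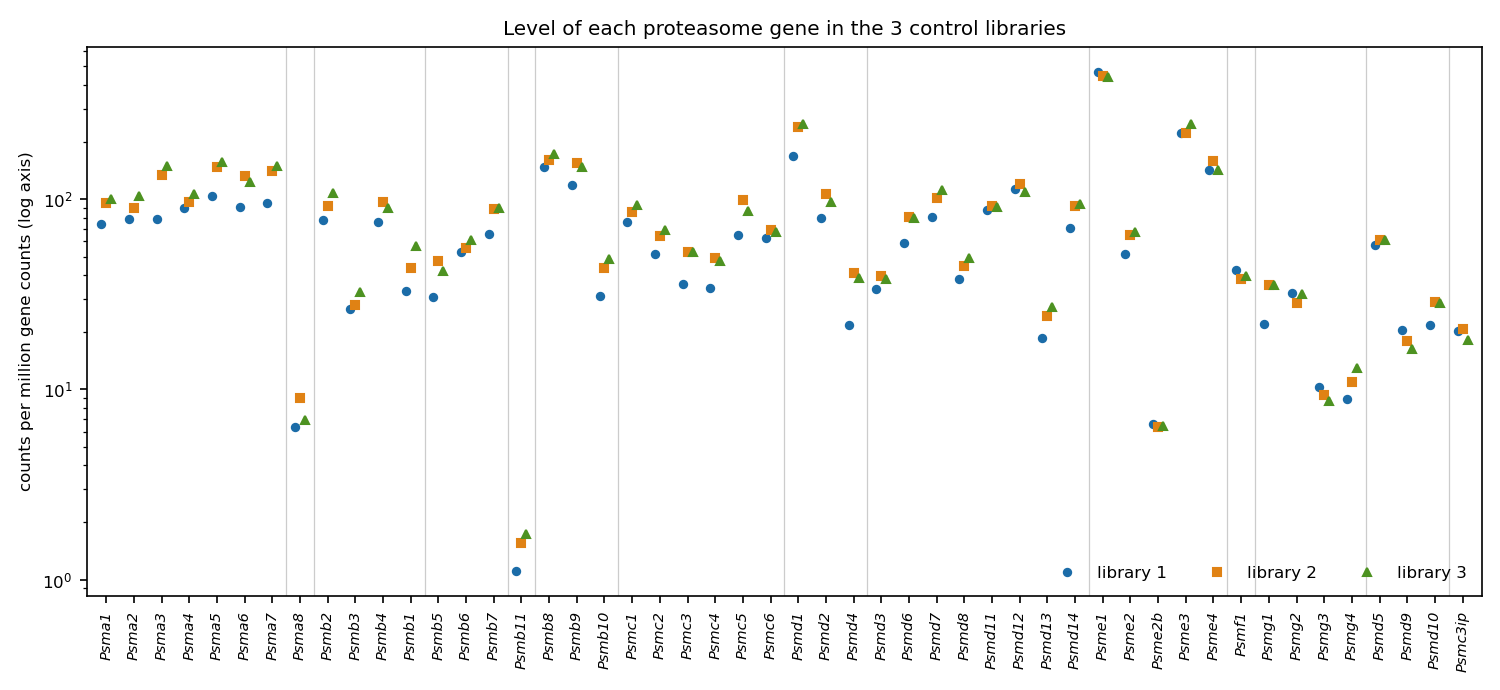
Level of each of the 50 genes (horizontal axis, ordered by role, with grey lines between roles) in CPM (vertical axis, logarithmic), 1 symbol per library. Psme1 stands highest at 451 CPM and Psmb11 lowest at 1.46 CPM, and the circles of library 1 lie lowest for 40 of the 50 genes.

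The 7 genes of the alpha ring, Psma1 to Psma7, had CPM values from 90.3 ± 13.8 CPM for Psma1 to 136 ± 27.7 CPM for Psma5. Psma5 stood at 104.7, 147.5 and 156.5 CPM. Psma1 stood at 74.5, 96.1 and 100.1 CPM. Both were lowest in library 1 and highest in library 3. Psma3 had the widest range of all members, with 79.1, 134.7 and 149.5 CPM and a mean of 121 ± 37.1, so its highest library was 1.89 times its lowest. Psma7 also spread over more than 1.5-fold, from 95.4 CPM in library 1 to 149.1 CPM in library 3. Psma4 varied least, at 89.8, 96.9 and 106.8 CPM. All 7 genes were lowest in library 1, and their summed level was 613.6, 839.7 and 889.0 CPM. The ring holds its 7 subunits in equal number, and the counts per kilobase of coding transcript spread from 31.3 for Psma2 to 141 for Psma7, a range of 4.50-fold. That spread depended on the length used. Per kilobase of coding sequence alone it ran from 114 for Psma1 to 188 for Psma5, with Psma2 at 130. Per kilobase of coding transcript that no other gene shares, with all counts kept, it ran from 33.0 for Psma2 to 257 for Psma5.

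Psma8 encodes an alpha subunit that replaces Psma7 in the proteasome of male germ cells. It was counted 194, 226 and 207 times, or 6.32, 9.005 and 6.89 CPM (mean 7.40 ± 1.42). These levels were well above the floor in each library. Per kilobase of annotated exons it reached 2.97, under the lowest ring gene, Psma2, at 24.8.

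Among the beta genes that form the walls of the inner ring, Psmb2 had the highest CPM at 77.6, 91.7 and 107.8 CPM (92.4 ± 15.1). Psmb4 lay at 87.4 ± 10.6 CPM. Psmb3 had the lowest CPM at 26.6, 27.7 and 32.4 CPM (28.9 ± 3.07), and Psmb3 is also one of the genes with much shared sequence. Psmb1, which despite its number is not a cutting subunit in mammals, stood at 32.7, 43.5 and 56.5 CPM (44.3 ± 11.9), with library 3 1.73-fold above library 1. All 4 were lowest in library 1. Psmb11, the thymoproteasome subunit of cortical thymic epithelium, was counted 34, 39 and 52 times. These counts correspond to 1.11, 1.55 and 1.73 CPM (1.46 ± 0.322), and to 0.306 CPM per kilobase of annotated exons, the lowest of the 50. Psmb11 (chromosome 14, 54621433 to 54629556, plus strand) is the genomic neighbour of Psmb5.

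The cutting sites of the standard core are made by Psmb5 (chymotrypsin-like), Psmb6 (caspase-like) and Psmb7 (trypsin-like). Psmb5 (chromosome 14, 54614119 to 54618022, minus strand) stood at 30.8, 47.3 and 41.9 CPM, with a mean of 39.98 ± 8.41. Psmb6 (chromosome 11, 70525367 to 70527858, plus strand) stood at 53.1, 55.8 and 61.4 CPM, with a mean of 56.7 ± 4.25. Psmb7 (chromosome 2, 38588036 to 38644087, minus strand) stood at 66.1, 89.4 and 90.04 CPM, with a mean of 81.8 ± 13.6. Each was lowest in library 1, and libraries 2 and 3 lay close together for Psmb7.

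Per kilobase of annotated exons the median of the immunoproteasome genes was 38.6, against 36.2 for core alpha and 27.1 for core beta genes, in sorted cells for which the labels name no interferon treatment. With the longest annotated transcript the order of the first pair turned, to 49.0 against 79.6 for core alpha, so the groups were not ordered by these medians. Psmb8, the counterpart of Psmb5 (chromosome 17, 34197721 to 34201454, plus strand), stood at 147.6, 161.0 and 173.6 CPM. Its mean was 160.7 ± 13.0. Psmb9, the counterpart of Psmb6, lies beside it (34181987 to 34187764, minus strand) in the MHC region next to the peptide transporter genes. It stood at 119.6, 156.1 and 148.5 CPM, with a mean of 141 ± 19.2. Psmb10, the counterpart of Psmb7 (chromosome 8, 105935735 to 105938444, minus strand), stood at 31.1, 43.3 and 48.5 CPM, with a mean of 41.0 ± 8.94. Library 1 was the lowest for all 3 genes.

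Each immunoproteasome gene was then set against its constitutive counterpart within each library, as the log2 difference of (CPM + 0.5) per kilobase of annotated exons. Psmb8 minus Psmb5 came to 0.33, -0.15 and 0.13, a mean of 0.10 (SD 0.24, higher in 2 of 3 libraries). Psmb9 minus Psmb6 came to 0.20, 0.51 and 0.30, a mean of 0.34 (SD 0.16, higher in 3 of 3 libraries). Psmb10 minus Psmb7 came to -0.07, -0.03 and 0.12, a mean of 0.01 (SD 0.10, higher in 1 of 3 libraries). On this length, then, the members of each pair lay within 1.26-fold of each other on average. The exact two-sided sign-flip permutation test gave p = 0.75, 0.25 and 1 (1, 0.5 and 1 after Benjamini-Hochberg adjustment over 4 pairs), and 3 libraries allow no p under 0.25.

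These ratios moved more with the length used than between the libraries. Per kilobase of the longest annotated transcript Psmb9 minus Psmb6 turned to -0.27, while Psmb8 minus Psmb5 was 0.93 and Psmb10 minus Psmb7 0.12. Per kilobase of coding transcript Psmb8 was 2.23-fold above Psmb5 and Psmb9 1.46-fold above Psmb6, while Psmb10 minus Psmb7 fell to -1.17. The last length took only the bases of the coding transcript that no other gene shares. All counts of each gene were kept, so this divisor holds only if no read from shared bases was counted. With it, Psmb8 and Psmb5 were level (-0.01), Psmb9 minus Psmb6 was 0.66 and Psmb10 minus Psmb7 was -1.66. On this last length the levels were 108 for Psmb8, 109.5 for Psmb5, 124 for Psmb9, 77.8 for Psmb6, 102 for Psmb7 and 32.5 for Psmb10. Psmb10 was thus below Psmb7 on both coding-transcript lengths, and the order of Psmb8 and Psmb5 depended on how the shared part of Psmb5 was treated. Exons overlap those of a gene on the opposite strand over 14.7% of the exon bases of Psmb8 (Gm20496), 11.8% of Psmb7 (Nek6) and 5.79% of Psmb9 (Tap1), and those of Psmb5 overlap Mir686 on its own strand over 12.1%. Whether the counting used strand is not known from these sources, and reads of these partners cannot be told apart. All 50-base words left out as shared in Psmb7 (312) and Psmb9 (163) were those of the overlapping Nek6 and Tap1, not of a copy elsewhere.

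**Figure D2:**
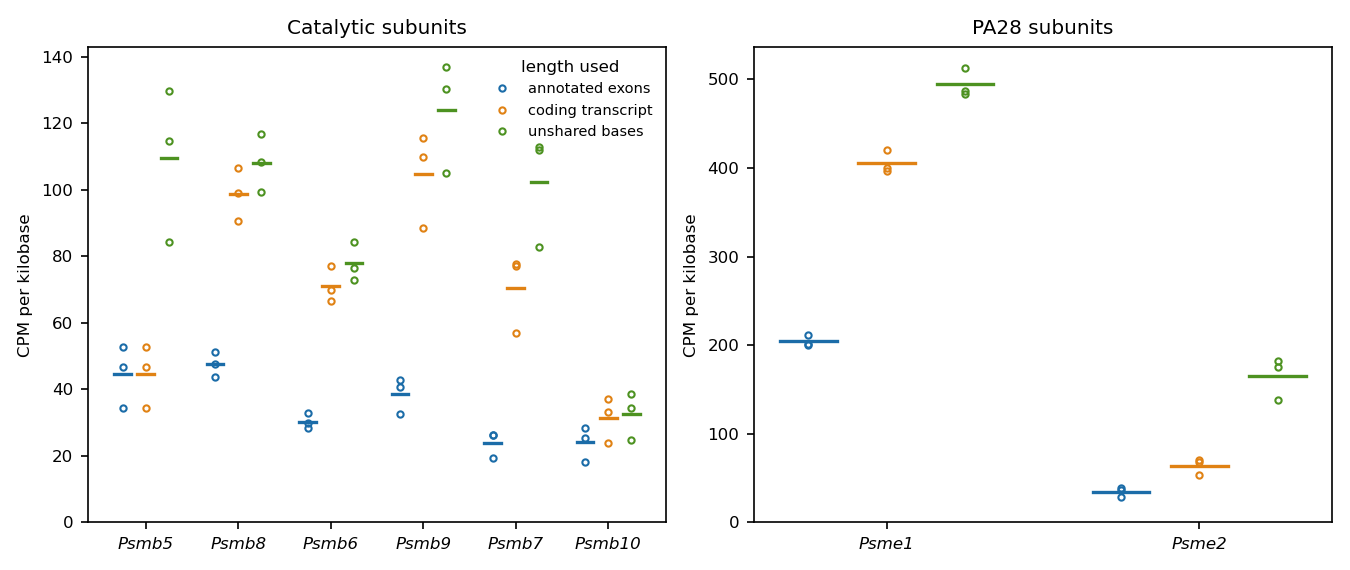
Level of the constitutive and immunoproteasome cutting subunits (left) and of the PA28 subunits (right) in CPM per kilobase, by the length used. Points are the 3 libraries and bars their means. Psmb10 lies at 24.04 to 32.5 on each length shown, while Psmb5 moves from 44.5 to 109.5 and Psmb7 from 23.9 to 102.

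The 19S genes were expressed in every library, with the base ATPases Psmc1 to Psmc6 between 43.6 ± 8.19 CPM for Psmc4 and 84.8 ± 8.62 CPM for Psmc1. Psmc1 was counted at 75.8, 85.5 and 93.0 CPM. Psmc4 was counted at 34.2, 49.2 and 47.3 CPM. The 6 ATPases form 1 ring, and all 6 genes were lowest in library 1. Psmd1, the large scaffold of the base, had the highest CPM of the 26S particle at 169, 239 and 248 CPM (219 ± 43.1), but its transcripts are long. Per kilobase of annotated exons Psmd1 reached 30.1, against 103 for Psma5, and per kilobase of coding transcript 70.2, against 110 for Psma5. Its scaffold partner Psmd2 lay at 94.7 ± 13.6 CPM. Psmd4, a receptor for ubiquitin chains, had the lowest CPM of the base genes with a Psmc or Psmd symbol. It stood at 21.7, 40.9 and 38.4 CPM (33.7 ± 10.4), a range of 1.88-fold, and libraries 2 and 3 lay close together.

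In the lid, taken here as its genes with a Psmd symbol, Psmd12 had the highest CPM at 113.0, 121.1 and 109.5 CPM (114.5 ± 5.94). Psmd13 had the lowest CPM of these genes at 18.7, 24.2 and 27.3 CPM (23.4 ± 4.37). Psmd14, the deubiquitinase that removes the ubiquitin chain, lay at 85.8 ± 13.3 CPM, its catalytically inactive partner Psmd7 at 98.1 ± 16.03 CPM and Psmd11 at 90.8 ± 2.23 CPM. Psmd11 and Psmd12 varied least of the lid, with highest over lowest ratios of 1.05 and 1.11. Per kilobase of coding transcript the median was 32.4 for the ATPases and 42.3 for the lid, against 84.0 for the alpha ring.

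Activator genes encode caps that open the core in place of the 19S particle. Psme1, the PA28 alpha subunit of an interferon-inducible cap, stood at 467.7, 444.7 and 441.3 CPM (451 ± 14.4), and at 204 per kilobase of annotated exons it was the highest of the 50. Its partner Psme2 stood at 51.3, 65.3 and 67.7 CPM (61.4 ± 8.83). Psme2b stood at 6.54, 6.38 and 6.39 CPM (6.44 ± 0.0924). The libraries agreed closely for Psme1 and Psme2b, whereas Psme2 was lowest in library 1. Psme3, which forms a nuclear cap of its own, lay at 224.6, 223.3 and 248.1 CPM (232 ± 14.0). Psme4, the PA200 activator, lay at 143.2, 158.6 and 142.4 CPM (148 ± 9.12). Psmf1, an inhibitor of the core, lay at 42.3, 38.1 and 39.4 CPM (39.9 ± 2.11), with library 1 the highest. The summed level of the 5 activator genes was 893, 898 and 906 CPM. That of the 31 genes of the 26S particle with a Psm symbol was 2073, 2695 and 2770 CPM.

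PA28 alpha and beta subunits sit together in 1 ring, yet Psme1 exceeded Psme2 in every library. The log2 difference per kilobase of annotated exons was 2.85, 2.43 and 2.37, a mean of 2.55 (SD 0.26) or 5.86-fold, higher in 3 of 3 libraries (exact sign-flip permutation p = 0.25, adjusted 0.5). It was 2.67 per kilobase of coding transcript and 1.58, or 2.99-fold, per kilobase of its unshared bases. The counts were the same on both lengths, so the smaller gap followed from the length alone. Shared words made up 59.3% of the coding transcript for Psme2 and 14.1% for Psme1. The direction was the same on each length tried.

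Assembly genes had the lowest median of the 5 groups per kilobase of annotated exons, 17.7. Of the chaperones that build the alpha ring, Psmg1 stood at 22.0, 35.3 and 35.5 CPM and its partner Psmg2 at 32.0, 28.4 and 31.8 CPM. Psmg3 stood at 10.4, 9.40 and 8.69 CPM and its partner Psmg4 at 8.89, 10.9 and 13.0 CPM. In both pairs, then, 1 gene was lowest in library 1 and its partner highest there, although Psmg2 was nearly level in libraries 1 and 3. The counts of Psmg3 did not pass a chi-square test over the 3 libraries (adjusted p = 0.124). Of the chaperones that build the ATPase ring, Psmd5 stood at 57.7, 60.8 and 61.3 CPM. Psmd9 stood at 20.4, 17.97 and 16.4 CPM. Psmd10, the oncoprotein gankyrin, stood at 21.7, 28.9 and 28.5 CPM. Here too the genes did not share 1 order, since Psmd9 was highest in library 1 and Psmd5 and Psmd10 lowest. The counts of Psmd5 did not pass the chi-square test either (adjusted p = 0.161). Per kilobase of coding transcript the medians were 24.3 for the ring chaperones and 13.6 for the base chaperones. Psmc3ip, which is no proteasome gene, lay at 20.2, 20.9 and 18.1 CPM.

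**Figure D3:**
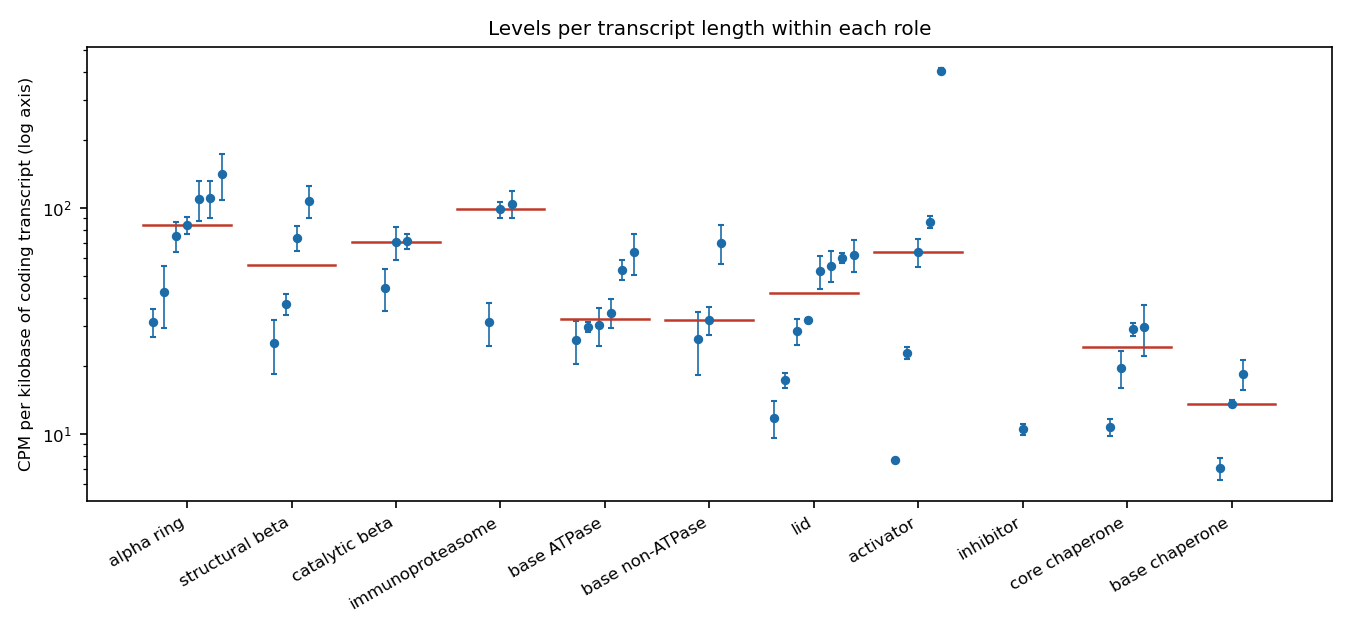
Level of each gene except Psma8, Psmb11 and Psmc3ip in CPM per kilobase of coding transcript (vertical axis, logarithmic) by role, with points for gene means, error bars for the SD over 3 libraries and red lines for the median of a role. The medians fall from 98.7 for the 3 immunoproteasome genes and 84.0 for the alpha ring to 13.6 for the base chaperones, and Psme1 stands highest at 406. Per kilobase of annotated exons the immunoproteasome median was 38.6, against 41.3 for the alpha ring, so their order depends on the length.

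Library 1 was lower than the others for nearly every gene of the 26S particle. The shift of a gene in library 1 is its log2(CPM + 0.5) there minus the mean of the other two libraries. The 31 Psm-named genes of the alpha ring, the constitutive beta ring and the 19S particle were pooled after their values were seen. Of the 12965 genes tested, 56.3% had a shift below 0, as did 31 of 31 of these genes. Their median shift was -0.40, from -0.85 for Psmd4 to -0.03 for Psmd12, against -0.05 for all genes tested. Library 1 was the lowest library for 30 of these 31, Psmd12 being the exception, and for 44.3% of all genes tested. By role, the median was -0.49 for the alpha ring, -0.44 for the cutting and -0.32 for the other beta subunits, -0.43 for the base ATPases, -0.52 for the other base subunits and -0.35 for the lid. The immunoproteasome genes moved alike, with 3 of 3 below 0 and a median of -0.35. The 13 activator, inhibitor and assembly genes did not share this order: 7 of 13 were below 0, with a median of -0.07 and a range from -0.68 for Psmg1 to 0.24 for Psmd9.

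**Figure D4:**
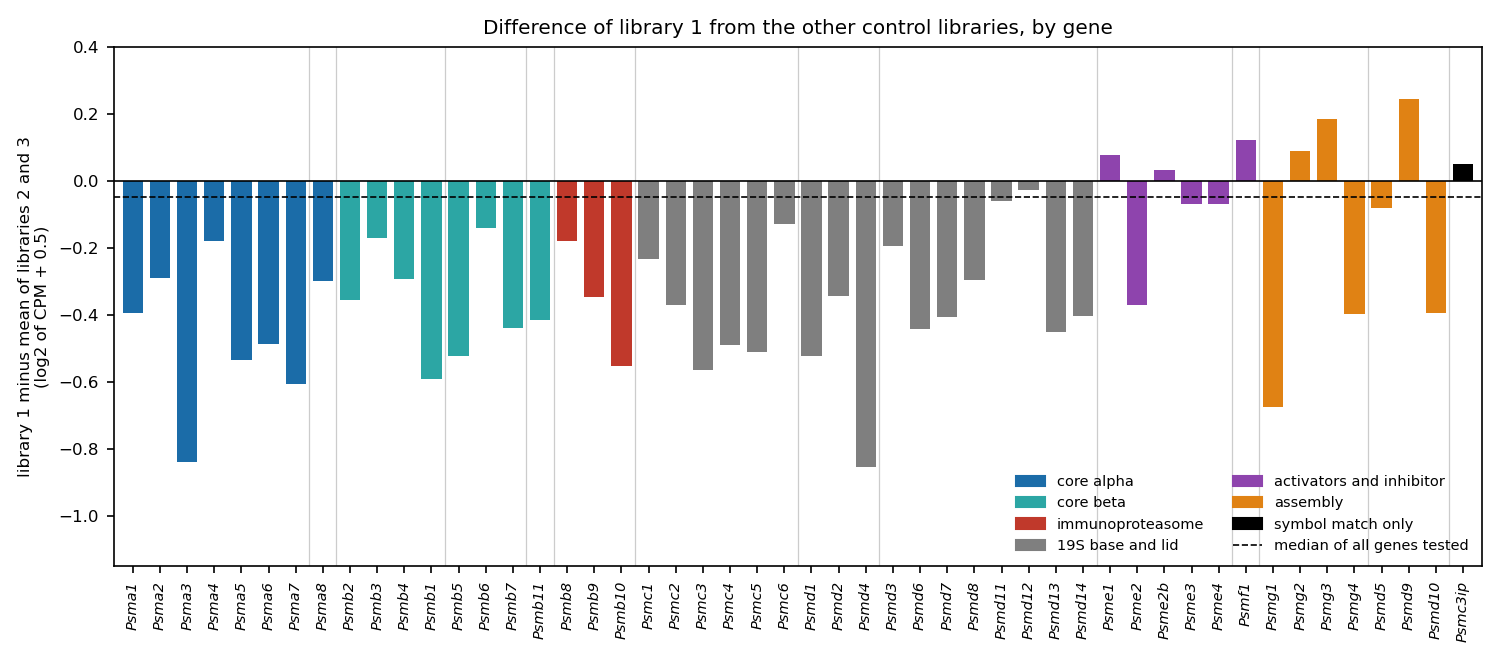
Difference of library 1 from the mean of libraries 2 and 3 in log2(CPM + 0.5) for each gene, coloured by role, with a dashed line at the median of all genes tested (-0.05). Bars of the core, immunoproteasome and 19S genes all point down, whereas those of the activator, inhibitor and assembly genes point both ways.

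With other scalings of the libraries the 26S genes kept a median shift between -0.36 and -0.34, with 30 of 31 below 0, since Psmd12 crossed to 0.02, 0.03 and 0.03. Over all 50 genes, 40 were lowest in library 1, 4 in library 2 and 6 in library 3 (background 44.3%, 23.6% and 32.1%), and 25 had library 1 lowest and library 3 highest, as 22.8% of all genes tested did. Between libraries 2 and 3 the members had no shared direction of note, with a median difference of 0.03, although single genes differed, such as Psmb1 at 43.5 and 56.5 CPM.

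By edgeR's quasi-likelihood test of spread against genes of like abundance, 0 of 50 genes passed a Benjamini-Hochberg adjusted p of 0.05 (background 0.00771%). The test recovered 34% of 2-fold changes, simulated with the spread typical of genes of like abundance. No member ranged over 2-fold, so the count does not show that they lacked extra spread. At an unadjusted p under 0.05 the test marked 6 of 50 (background 4.57%): Psma3, Psma5, Psma7, Psmb1, Psmd1 and Psmd4. Their adjusted p with edgeR was 0.983. DESeq2 called 0 of 50 as dispersion outliers (background 0.231%). The highest library exceeded the lowest by more than 1.5-fold for 9 of 50 genes (background 28.2%). A chi-square test of the counts over the 3 libraries passed an adjusted p of 0.05 for 43 of 50 (background 82.6%), and for 26 of 50 without library 1 (background 51.4%). It compares the reads of these libraries, whose amplified copies are not independent molecules. Both shares were near their backgrounds.

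Other measures also differed between the libraries, not all in the same order. Rn45s, a ribosomal RNA precursor, took 11.8% of its gene counts, against 8.20% and 7.91%. Spike-in counts were 1.48% of gene counts, against 0.954% and 0.582%, and genes with a count numbered 15798, against 16159 and 16410. The 7 granulocyte and monocyte genes, all at 1 CPM or more, summed to 921, 1774 and 2838 CPM. They did not move as one: Mpo, the myeloperoxidase gene, stood at 683, 1544 and 2403 CPM and Elane, the neutrophil elastase gene, at 24.7, 112 and 240 CPM, while Ngp, S100a8, S100a9 and Lcn2 of later granulocytes were highest in library 1. Summed macrophage and dendritic genes (5 of 7 at 1 CPM) ranged from 52.4 to 73.5 CPM and B cell genes (4 of 4) from 43.7 to 46.8 CPM. Erythroid genes (2 of 4, Hba-a1 and Hbb-b1 at 0) summed to 12.4 to 22.4 CPM, and Hbb-b1 had no annotated length. Slc4a1 stood at 13.2, 1.43 and 2.46 CPM and Alas2 at 9.18, 14.9 and 9.89 CPM, so the erythroid genes did not share 1 order. T cell genes (0 of 3) summed to at most 1.40 CPM and stromal genes (1 of 4, Col3a1 at 0) to at most 8.05 CPM. The part of these measures in the lower 26S levels of library 1 was not tested. In bulk samples such as these, fewer cells of a type and less RNA per cell cannot be told apart.

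Promoters were read in RefSeq windows of 300 bases (250 before to 50 after a start site, GRCm38.p6). Of the 50 genes, 42 were matched, by 45 windows. Members were counted per gene, with a match in any of its windows, and the background per window. A member with more than 1 window thus had more occasions to match. Motifs were searched on both strands, and a match describes letters, not a bound site. The binding sequence of nuclear respiratory factor 1, searched as GCGC and TGCGC with 1 free base between them, was found for 7 of 42 genes (16.7%), against 4.603% of all 32851 windows. These were Psma2, Psma3, Psma4, Psmc4, Psmc5, Psmd14 and Psmg1. The match in each of the 6 subunit genes is shown within 30 bases and in capitals, since this motif had the largest ratio of the shares. Each stretch reads along the strand of its gene. In Psma3, Psma4 and Psmc4 the motif is on the other strand, so the capitals are its reverse complement.
Psma2, chr13:14613105-14613134, plus strand: ggcccctcttGCGCATGCGCaagggtcaaa
Psma3, chr12:70974535-70974564, plus strand: tatggtttctGCGCACGCGCgctctctgct
Psma4, chr9:54950788-54950817, plus strand: tcgcagtcctGCGCACGCGCgggagccata
Psmc4, chr7:28050242-28050271, minus strand: aagagttactGCGCACGCGCaacatccttg
Psmc5, chr11:106256126-106256155, plus strand: tttcgcctccGCGCCTGCGCgatagagtga
Psmd14, chr2:61711604-61711633, plus strand: caggcggcctGCGCGTGCGCtgtgtgctcc
The antioxidant response element core TGACNNNGC, at which the factors of the Nfe2l1 and Nfe2l2 genes bind, was found for 6 of 42 genes (14.3%), against 12.4% of all windows. Psmb5 and Psmb6 were the only cutting subunits among them, and their stretches are given with the match in capitals.
Psmb5, chr14:54618023-54618095, minus strand: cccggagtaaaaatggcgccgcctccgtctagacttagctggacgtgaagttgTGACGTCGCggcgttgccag
Psmb6, chr11:70525257-70525356, plus strand: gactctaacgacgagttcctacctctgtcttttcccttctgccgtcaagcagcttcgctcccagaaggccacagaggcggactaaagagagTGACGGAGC

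Both common kinds of interferon-related sequence were searched as well. The gamma-activated sequence TTCNNNGAA was found for 3 of 42 genes (7.14%, against 8.30% of all windows), namely Psmb8, Psmd2 and Psmg1. That of Psmb8 is shown, since Psmb8 had the highest CPM of the immunoproteasome genes.
Psmb8, chr17:34198088-34198117, plus strand: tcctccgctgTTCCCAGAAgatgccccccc
The interferon-stimulated response core, searched as GAAA and GAAA with 2 free bases between them, was found for 5 of 42 (11.9%, against 3.44%): Psmb3, Psmd4, Psmd9, Psme1 and Psmg4. The GC box GGGCGG was found for 23 (54.8%, against 35.7%), CCAAT for 15 (35.7%, against 37.4%) and TATAAA for 4 (9.52%, against 13.6%). The Capicua octamers TGAATGAA and TGAATGGA were found for 0 of 42, against 1.30% and 1.21% of all windows.

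Genes that work with the proteasome but lie outside the symbol rule were expressed as widely. All 9 listed components and partners reached 1 CPM, with a median of 101 CPM, and 8 of 9 were lowest in library 1 (background 44.3%). Those of highest CPM were AI314180, the mouse gene of the scaffold Ecm29, at 300 ± 29.2 CPM, Pomp, the maturation factor of the core, at 164 ± 10.0 CPM, and the deubiquitinase gene Uchl5 at 115 ± 6.70 CPM. Pomp was the exception to the order, with 161, 155 and 175 CPM. That of lowest CPM was Shfm1, a small lid subunit, at 12.5, 19.5 and 29.2 CPM (20.4 ± 8.42). Among the regulators of proteasome genes, Nfe2l1, whose product raises subunit transcription when the proteasome is inhibited, lay at 99.5 ± 12.8 CPM and its relative Nfe2l2 at 175 ± 13.7 CPM. Ngly1 and Ddi2, which process the Nfe2l1 protein, lay at 55.9 ± 5.31 and 20.5 ± 3.67 CPM.

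Upstream of the proteasome, all 6 ubiquitin genes reached 1 CPM, with the activating enzyme gene Uba1 at 429 ± 8.05 CPM, the fusion gene Rps27a at 333 ± 64.3 CPM and the polyubiquitin gene Ubb, of the lowest CPM, at 41.2 ± 2.92 CPM. All 9 substrate delivery genes did so too. The segregase gene Vcp had the highest CPM at 283 ± 31.02 CPM, followed by the shuttle gene Rad23b at 177 ± 2.11 CPM and Zfand5 at 139 ± 8.39 CPM. Downstream, all 10 antigen processing genes and regulators did. B2m, the light chain of MHC class I, lay at 3501 ± 318 CPM, the class I heavy chain genes H2-K1 at 1261 ± 101 CPM and H2-D1 at 309 ± 62.8 CPM, and the peptide transporter gene Tap2, of the lowest CPM, at 53.6 ± 7.25 CPM. Library 1 was lowest for 3 of 6 ubiquitin genes, 7 of 9 delivery genes and 7 of 10 antigen processing genes (background 44.3%). None of these partner, ubiquitin, delivery and antigen processing genes passed the adjusted variability test with edgeR. Among the cell type genes given above, Elane did, with an adjusted p of 0.0218 by that test.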

How the data were processed

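RNA was sequenced in 3 libraries of 1 group. Per the labels' protocols, 10 ng of total RNA was turned into double-stranded DNA and amplified by the NuGEN Ovation kit with poly(A) and random priming, which multiplies molecules and admits ribosomal RNA. The deposited files hold raw counts per gene symbol. Per the submitters' processing notes the authors used TopHat2 2.0.9, HTSeq, DESeq2 and mm10. Strand setting and gene model: not given in the sources used here. The 92 spike-in and 5 category entries were left out of totals, and non-unique alignments were 16.0% to 17.0% of all entries. Entries assigned to no feature were 43.5%, 48.4% and 42.9% of all entries in libraries 1, 2 and 3. Whether such background adds to the genes of low count was not tested.

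Counts were scaled to CPM on plain gene totals. Logs were taken after adding 0.5 CPM. Exon lengths, coordinates and shared 50-base words came from GENCODE M21 (GRCm38), which matched 98.5% of symbols and all 50 members. The tests covered genes that averaged 1 CPM or more: edgeR's quasi-likelihood fit (intercept only, TMM, robust) with an F test of each gene's dispersion over the trend, a chi-square test of the counts (2 degrees of freedom), and exact sign-flip tests of 4 gene pairs. P-values were Benjamini-Hochberg adjusted over all genes, or over the 4 pairs. On simulated data of 12782 genes for the variability test, 34% of genes changed 2-fold in 1 library were recovered. The share was 86% at 4-fold, 94% at 8-fold and 100% at 16-fold, with 1 false call among 158. Every simulated gene was drawn at the trend dispersion, without the differences in spread between real genes. Recovery in the real counts may therefore be lower.

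Alternatives were TMM and DESeq2 scaling, totals without Rn45s, other lengths, pseudocounts and minima, and leaving out each library. Coding lengths, unshared bases, shifts relative to the median of all genes and shifts over fewer libraries were added after the data were seen. The members and lists were chosen with earlier results of these data known. All members could be named, with values in every library for the pair, tissue-restricted and assembly genes, the highest and lowest of each role and the widest ranges, and of other lists the 3 highest and the lowest, some of which are not reported here. Software was R 4.3.3, edgeR 4.0.16, DESeq2 1.42.0, Python 3.11.15, NumPy 2.4.6, SciPy 1.17.1 and pandas 2.3.3.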

Additional observations from a re-analysis of the deposited data

How the results depend on the processing

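No paired analysis was possible because the 3 libraries form a single group. The planned coding length from RefSeq proteins was not run, and the annotated coding length took its place.

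Lengths moved the per-kilobase medians most. With the longest transcript, the coding length, the coding transcript and its unshared bases, the median was 30.9, 59.2, 33.2 and 42.1 for all 50 genes, 79.6, 143, 79.6 and 97.4 for core alpha, 36.6, 70.5, 57.5 and 84.5 for core beta, 49.0, 194, 98.7 and 108 for the immunoproteasome and 30.5, 56.9, 32.0 and 39.97 for regulatory genes. The assembly median moved only with the coding length, to 35.7. Without Rn45s in the totals the CPM median of all 50 was 70.4, and 16 of 50 gene means moved by more than their SD, none under the other scalings or with a library left out.

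Pair differences that changed sign were Psmb8 minus Psmb5 over unshared bases (-0.014), Psmb9 minus Psmb6 with the longest transcript (-0.27) and Psmb10 minus Psmb7 with the coding length (-0.98), the coding transcript (-1.17), unshared bases (-1.66), no length (-0.998) and a pseudocount of 0.1 CPM (-0.0010). With 1 library left out they ranged from -0.013 (without library 1) to 0.23 for Psmb8 minus Psmb5, from 0.25 to 0.40 for Psmb9 minus Psmb6, from -0.051 (without library 3) to 0.044 for Psmb10 minus Psmb7 and from 2.40 to 2.64 for Psme1 minus Psme2.

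The median shift of library 1 over all 50 genes stayed between -0.39 and -0.29. That of library 2 (0.12 against both others) was -0.025 without library 1 and 0.34 without library 3, and that of library 3 (0.20) was 0.025 without library 1 and 0.39 without library 2, since libraries 2 and 3 are compared with a low library 1. Under DESeq2 scaling 7 genes were lowest in library 2. The chi-square count ranged from 26 (without library 1) to 40 with 1 library left out. The variability count was 0 under every alternative run.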
